A study of Macaca fascicularis with 2 samples.

Results

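The NOTCH pathway genes described here are 10 of the 18446 genes counted in single cells of the fetal monkey ovary. They are the ligands JAG1, JAG2 and DLL4, the receptors NOTCH1, NOTCH2 and NOTCH3, and the target genes HES1, HEY1, HEY2 and HEYL. They were taken by name from the rows of the count table, and all 10 were present. All 20967 cells of the table were used, including the 4675 cells with more than 3000 detected genes.

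The ovaries came from 2 untreated female fetuses of Macaca fascicularis, the cynomolgus monkey, 1 at embryonic day 84 (E84) and 1 at embryonic day 116 (E116). Both ovaries of a fetus were digested together and made into 1 droplet-based library that tags the 3′ end of polyadenylated RNA. Each stage is thus 1 animal and 1 library, with no replicate. Barcodes in the table end in 1 (10621 cells, called set 1) or in 2 (10346 cells, set 2), and no label ties an ending to a stage. The 2 sets are therefore unlabelled libraries, no value is given by stage, and the table was treated as a single pooled sample.

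NOTCH receptors are single-pass membrane proteins that bind JAG or DLL ligands on a neighboring cell. Ligand binding exposes the receptor to ADAM proteases and then to gamma-secretase, and the freed intracellular part enters the nucleus, where it joins the DNA-binding protein RBPJ and switches on repressors of the HES and HEY families. In the rodent ovary, oocytes carry JAG1 and the surrounding pregranulosa cells carry NOTCH2 while germ cell nests break up into follicles. In vessels, DLL4 is a ligand of endothelial cells and NOTCH3 is the receptor of the mural cells around them, the pericytes and smooth muscle cells.

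The table held 148824177 unique molecular identifiers (UMIs, 1 per captured RNA molecule), with a median of 3756 per cell, 3130 in set 1 and 4555.5 in set 2. Both sets shared 27 barcodes. Clustering without the pathway genes gave 20 clusters. They were named from marker genes as germ cell-like (6326 cells), granulosa cell-like (2783), surface epithelium-like (1251), stroma-like (4366), pericyte-like (141), endothelium-like (545), macrophage-like (246) and erythroid cell-like (745). By the naming rule, 10 of 11 endothelial, 8 of 8 pericyte and 6 of 10 granulosa markers (in each granulosa-like cluster) were found. A further 5 clusters with 4564 cells kept no name. Germ cell-like cells were divided again into mitotic (254), RA-responsive (1405, the stage that responds to retinoic acid), meiotic (1287) and oogenesis-like cells (667), and 2713 germ cells kept no stage.

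Several groups came almost wholly from 1 library. The granulosa-like cluster 1, led by SOST and KITLG, had 2138 of 2173 cells in set 1, whereas the granulosa-like cluster 13, led by PCP4, INHA and AMH, had 505 of 610 in set 2. Likewise, the stroma-like cluster 2 (POSTN, LUM) had 1852 of 1916 cells in set 1, and the stroma-like cluster 0 (C7, SPON2) had 2439 of 2450 in set 2. Oogenesis-like cells (647 of 667), pericyte-like cells (131 of 141) and the unnamed cluster 11 (829 of 829, led by CBLN2 and LYPD1) lay in set 2. In such groups, library and cell type cannot be told apart.

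Levels are given as UMIs per 1000000 UMIs of a group (CPM), after summing over the cells of the group. The 95% intervals are exact Poisson intervals, shares of cells have exact binomial intervals, and both cover counting error only. Shares of cells with a UMI are given after every cell was thinned to 1000 UMIs, which leaves out shallower cells. No test between groups was made, because the groups share only 2 libraries, 1 per stage, with no replicate.

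**Figure D1:**
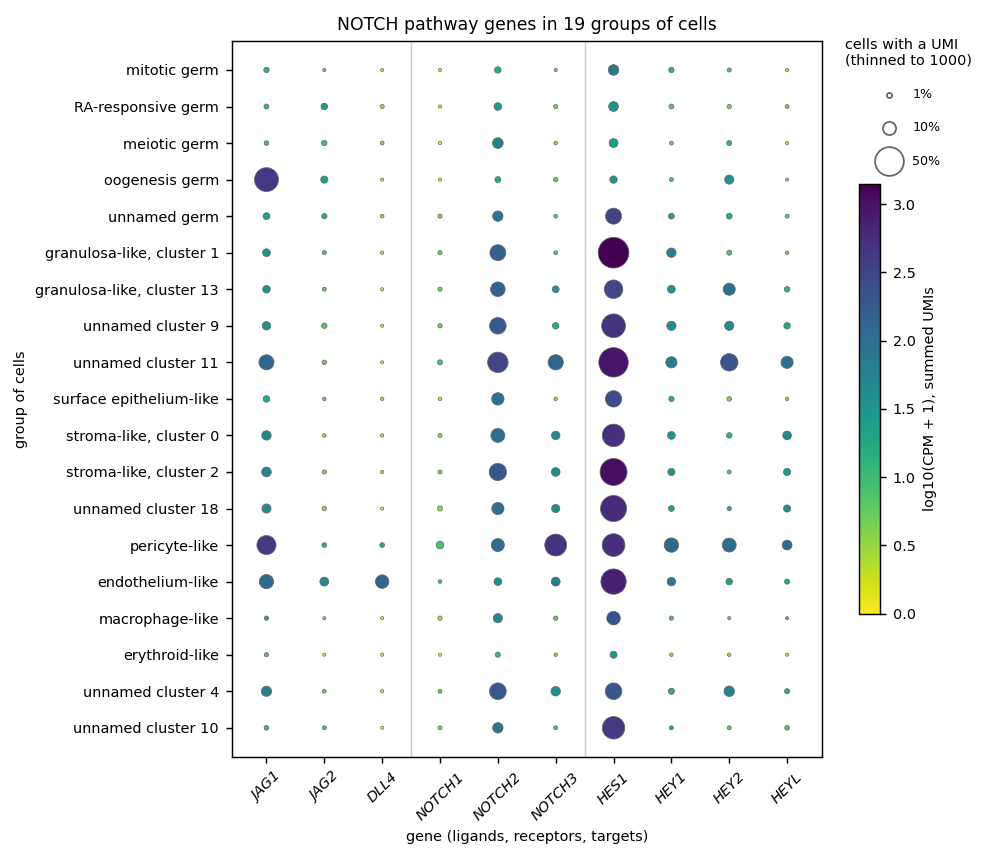
Each dot is 1 gene (columns: ligands, receptors, targets) in 1 of 19 groups of cells (rows); color is log10(CPM + 1) of summed UMIs and size is the percent of cells with a UMI after thinning to 1000 UMIs. JAG1 stands out in oogenesis-like and pericyte-like cells, DLL4 in endothelium-like cells, NOTCH3 in pericyte-like cells, and HES1 is high in most somatic groups.

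JAG1, a membrane ligand of NOTCH receptors, was the member that marked the most advanced germ cells. Its level was 438 CPM (95% interval 426 to 451) in oogenesis-like cells, against 12.3 CPM (8.84 to 16.6) in mitotic, 11.6 CPM (9.85 to 13.6) in RA-responsive and 8.49 CPM (6.63 to 10.7) in meiotic germ cells. Erythroid cell-like cells gave 5.81 CPM (3.64 to 8.79). In these cells the erythroid markers, hemoglobin genes among them, summed to 468130 CPM, which lowers the CPM and thinned share of every other gene. They are therefore a low reference, here and for the genes below. The meiotic and erythroid intervals overlap, so JAG1 in meiotic cells was not distinguished from that low level. Oogenesis-like cells were 3.18% of all cells and held 45.02% of all JAG1 UMIs.

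Oogenesis-like cells also stood apart from the other stages when cells were brought to equal depth. After thinning, 34.5% of oogenesis-like cells (30.4 to 38.8) had a JAG1 UMI, 160 of the 667 cells being left out as too shallow. The share was 1.18% of mitotic (0.244 to 3.41), 0.871% of RA-responsive (0.451 to 1.52) and 0.678% of meiotic cells (0.293 to 1.33). These 3 intervals overlap, so the shares gave no order among these stages. For comparison, 0.46% of erythroid cell-like cells (0.095 to 1.34) had one. Unthinned, the shares were 56.7% of oogenesis-like cells at a median of 2964 UMIs and 2.55% of erythroid cell-like cells at a median of 4078 UMIs.

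Oogenesis-like cells were of unlike size, and JAG1 was high in large and small ones alike. In the 217 cells with more than 3000 genes, at a median of 38615 UMIs, JAG1 was 431 CPM (419 to 445). In the 450 cells with at most 3000 genes, at a median of 1337.5 UMIs, it was 497 CPM (456 to 539). The large cells alone held 39.7% of all JAG1 UMIs of the table, from 1.03% of its cells, so an upper limit of 3000 genes would remove 4220 of the 4782 JAG1 UMIs of this group. By sub-cluster, JAG1 was 557 CPM (506 to 612) in the 356 shallow cells led by ZP4 and GDF9, an egg coat and an oocyte growth factor gene, and 429 CPM (417 to 442) in the 311 deep cells led by PADI6 and ZAR1, both maternal-effect genes.

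Set against all other germ cells, JAG1 was higher in oogenesis-like cells by 4.71 on the log2 scale (4.60 to 4.83), from 4782 against 678 UMIs. Within set 2 the difference was 4.32 (4.16 to 4.49). Within set 1 it was 2.53 (1.74 to 3.23), where only 20 oogenesis-like cells with 17 JAG1 UMIs gave 77.9 CPM. In cells with at most 10% mitochondrial UMIs it was 3.98 (3.71 to 4.24), from 242 UMIs at 236 CPM. The unnamed germ cells had 26.8 CPM (24.2 to 29.5), and with the 4 named stages alone the difference was 5.36 (5.18 to 5.54).

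In somatic cells, JAG1 was highest in the pericyte-like group at 393 CPM (349 to 440), an interval that overlaps that of oogenesis-like cells. The thinned share of pericyte-like cells with a UMI was 22.0% (15.2 to 30.0). Next came the unnamed cluster 11 with 128 CPM (121 to 135) and endothelium-like cells with 120 CPM (111 to 130), whose intervals overlap. Both stroma-like clusters lay lower, at 51.6 CPM (48.0 to 55.4) and 55.6 CPM (50.6 to 61.0), and the granulosa-like clusters lower still, at 35.5 CPM (32.5 to 38.7) and 32.2 CPM (27.9 to 37.0). Surface epithelium-like cells had 16.1 CPM (14.0 to 18.3). In sets 1 and 2, endothelium-like cells had 145 and 116 CPM and stroma-like cells 53.9 and 52.5 CPM.

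JAG2, a second JAG ligand, was spread over vessels and germ cells. Endothelium-like cells had 45.2 CPM (39.7 to 51.3), 33.9 in set 1 and 46.9 in set 2. RA-responsive and oogenesis-like germ cells followed at 23.8 CPM (21.2 to 26.5) and 22.5 CPM (19.7 to 25.4), which overlap. Meiotic cells, which lie between these stages in germ cell development, had 8.72 CPM (6.84 to 10.97), and mitotic cells 5.25 CPM (3.11 to 8.30). Within the RA-responsive cells, the 3 sub-clusters had 18.8, 24.0 and 25.4 CPM. After thinning, a JAG2 UMI was found in 4.27% of endothelium-like (2.66 to 6.45), 2.11% of RA-responsive (1.42 to 3.01), 2.56% of oogenesis-like (1.37 to 4.35) and 1.19% of meiotic cells (0.65 to 1.98), so the step between RA-responsive and meiotic cells was not resolved in the shares. Germ cells as a whole held 58.3% of the JAG2 UMIs, whereas stroma-like cells had 2.18 CPM (1.62 to 2.88).

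DLL4, the delta-like ligand of endothelial cells, was found mostly in the endothelium-like group. Of 833 DLL4 UMIs in the table, 83.4% came from these 545 cells, where the level was 129 CPM (120 to 139). The level was 55.1 CPM from 39 UMIs in set 1 and 141 CPM from 656 UMIs in set 2. Pericyte-like cells had 17.4 CPM (9.25 to 29.7) from 13 UMIs, and no other named group exceeded 2.75 CPM. Macrophage-like and erythroid cell-like cells had 0 UMIs, which allows up to 2.76 and 0.792 CPM at a limit of 3 counts.

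The difference between endothelium-like and all other cells was 7.07 on the log2 scale (6.80 to 7.34). It was 5.67 (5.06 to 6.27) within set 1, and 6.73 (6.43 to 7.03) without the 2 endothelial sub-clusters led by pericyte or stroma genes. Oogenesis-like cells had DLL4 at 0.458 CPM (0.149 to 1.07), although the 11 endothelial markers used for naming summed to 671 CPM there, against 2948 CPM in endothelium-like cells. Of that sum 618 CPM was VWF, a clotting factor gene, while the endothelial adhesion gene CDH5 was at 1.28 CPM, against 461 CPM in endothelium-like cells.

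**Figure D2:**
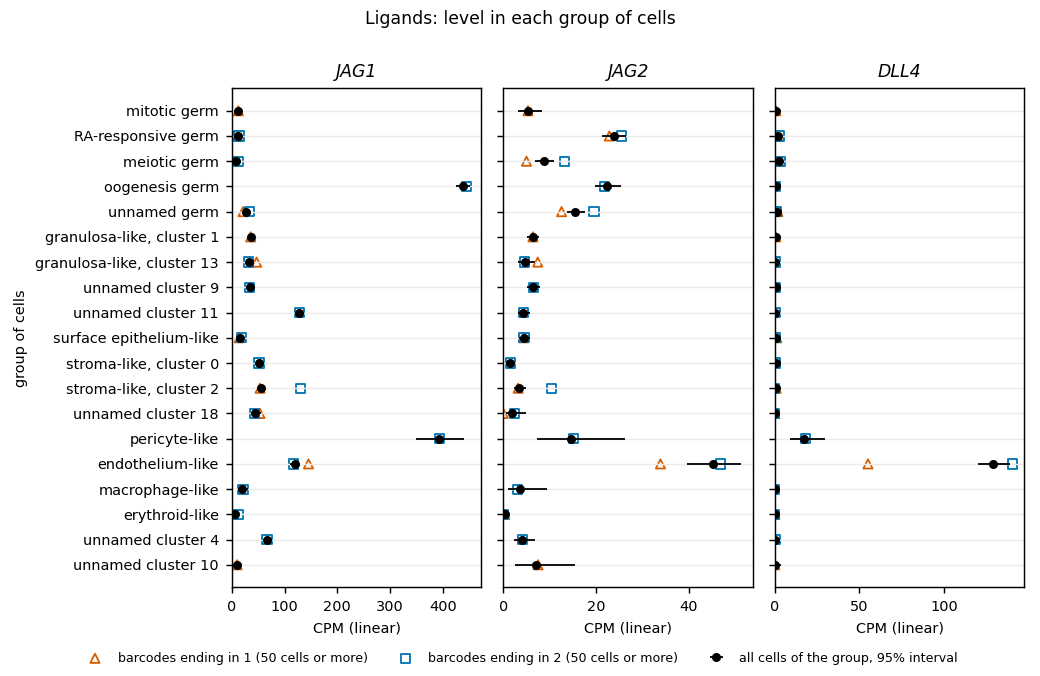
Level of the 3 ligands (CPM, linear axes) in 19 groups of cells; black points are all cells of a group with the 95% Poisson interval, triangles and squares sets 1 and 2 where at least 50 cells are present. JAG1 peaks at 438 CPM in oogenesis-like and 393 CPM in pericyte-like cells, and DLL4 at 129 CPM in endothelium-like cells.

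NOTCH2, a broadly used NOTCH receptor, was found in every named group, and among the groups with much JAG1 it was low in oogenesis-like cells. The granulosa-like clusters 1 and 13 had 158 CPM (152 to 165) and 152 CPM (143 to 162), which overlap. Oogenesis-like cells had 16.5 CPM (14.2 to 19.1), 59.6 in set 1 and 15.6 in set 2. Over granulosa-like and all germ cells, the levels were 156 and 45.03 CPM, a log2 difference of 1.80 (1.72 to 1.87). It was 1.63 (1.53 to 1.72) in set 1 and 1.95 (1.81 to 2.08) in set 2. The difference was 2.38 (2.28 to 2.48) when only germ cells of the 4 named stages were the reference.

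Among the 4 named germ cell stages, NOTCH2 was highest in the meiotic one, while the germ cells without a stage had 80.9 CPM (76.4 to 85.5). The levels were 15.5 CPM (11.6 to 20.2) in mitotic, 27.0 CPM (24.3 to 29.9) in RA-responsive and 58.2 CPM (53.1 to 63.6) in meiotic cells. Meiotic cells exceeded RA-responsive cells in both sets, at 73.9 against 28.8 CPM in set 1 and 39.0 against 23.6 CPM in set 2. After thinning, 6.44% of meiotic cells (5.11 to 7.995) and 2.98% of RA-responsive cells (2.15 to 4.02) had a UMI. Oogenesis-like cells at 1.58% (0.684 to 3.09) overlapped erythroid cell-like cells at 1.07% (0.433 to 2.20).

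The highest NOTCH2 level of all groups was that of the unnamed cluster 11 at 302 CPM (291 to 313), with a thinned share of 25.0% (22.1 to 28.1). This cluster carried 3 granulosa and 3 pericyte markers by the naming rule. AMHR2, the receptor of the anti-Müllerian hormone, was at 296 CPM there, RGS5, a regulator of G-protein signaling known from pericytes, at 1132 CPM, and ACTA2, smooth muscle actin, at 123 CPM. Every gene of the pericyte list was lower in cluster 11 than in pericyte-like cells, which had RGS5 at 1714 CPM and ACTA2 at 3629 CPM. TAGLN was at 107 against 1756 CPM. MYH11, CSPG4, KCNJ8, ABCC9 and CNN1 were at 25.6, 9.90, 10.2, 7.98 and 17.0 CPM, against 504, 118, 139, 52.1 and 61.5 CPM. Of the granulosa list, FOXL2, KITLG, GATM, INHBB and RSPO1 were lower in cluster 11 than in both granulosa-like clusters. KITLG, the ligand of the KIT receptor of germ cells, was at 57.6 CPM against 421 and 138 CPM in clusters 1 and 13. RSPO1, an activator of WNT signaling, was at 4.55 CPM against 50.1 and 37.4 CPM. AMHR2 and WNT6 were higher than in both, with AMHR2 at 162 and 188 CPM in clusters 1 and 13. WNT6 was at 131 CPM against 109 and 108 CPM. BMP2, HSD17B1 and AMH in cluster 11 lay between the levels of clusters 1 and 13. The stroma-like cluster 2 had 201 CPM of NOTCH2 (191 to 211), the unnamed cluster 9 (MNDA, RGS4) 187 CPM (179 to 195) and the mitochondria-rich cluster 4 had 185 CPM (171 to 200), each overlapping its neighbor in this order. Mitochondrial UMIs, at a median of 49.9% in cluster 4 and 16.0% in cluster 11, count in the CPM total and lower the CPM of other genes. Levels without them were not taken, so the order of clusters 4 and 11 holds for this total only. The stroma-like cluster 0 had 110 CPM (105 to 115), so the stroma-like clusters differed by more than their counting error. Pericyte-like cells had 115 CPM (91.9 to 142) and endothelium-like cells 38.3 CPM (33.3 to 43.9).

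NOTCH3, the receptor of mural cells, was 484 CPM (435 to 536) in pericyte-like cells. It was 394 CPM from 10 UMIs in set 1 and 487 CPM from 352 UMIs in set 2. The thinned share of cells with a UMI was 28.8% (21.2 to 37.3). Stroma-like cells had 43.6 CPM (41.0 to 46.4), which placed pericyte-like cells 3.47 higher on the log2 scale (3.29 to 3.65). Set against the stroma-like cluster 0 alone, which lies almost wholly in the same set, the difference was 3.39 (3.20 to 3.58).

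Between these levels lay the unnamed cluster 11, with 130 CPM of NOTCH3 (123 to 137) and 32.6% of all its UMIs, and endothelium-like cells with 63.6 CPM (57.1 to 70.7). In endothelium-like cells the value rested on 2 sub-clusters led by pericyte and stroma genes, and it was 10.1 CPM (6.86 to 14.3) without them. The granulosa-like clusters differed, at 6.03 CPM (4.83 to 7.43) in cluster 1 and 29.0 CPM (24.9 to 33.6) in cluster 13. In cluster 13 the level was 27.3 CPM in set 1 and 29.1 CPM in set 2. Named germ cell stages had 1.79 to 4.58 CPM.

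NOTCH1, which has known roles in endothelium, was sparse, with 415 UMIs in all. Its highest levels were 7.999 CPM (5.79 to 10.8) in endothelium-like cells, 7.48 CPM (5.87 to 9.39) in the unnamed cluster 11 and 6.68 CPM (2.17 to 15.6) in pericyte-like cells, and these intervals overlap. Granulosa-like cells had 4.17 CPM (3.34 to 5.15) and stroma-like cells 3.45 CPM (2.73 to 4.30). The 4 named germ cell stages together had 9 UMIs, or 0.248 CPM (0.113 to 0.471). The intervals of endothelium-like cells and cluster 11 lay above those of granulosa-like and stroma-like cells, which the pericyte-like interval overlapped. Surface epithelium-like cells were lower, at 0.642 CPM (0.294 to 1.22). Thinned shares were at most 3.03%, from 4 pericyte-like cells with a UMI.

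**Figure D3:**
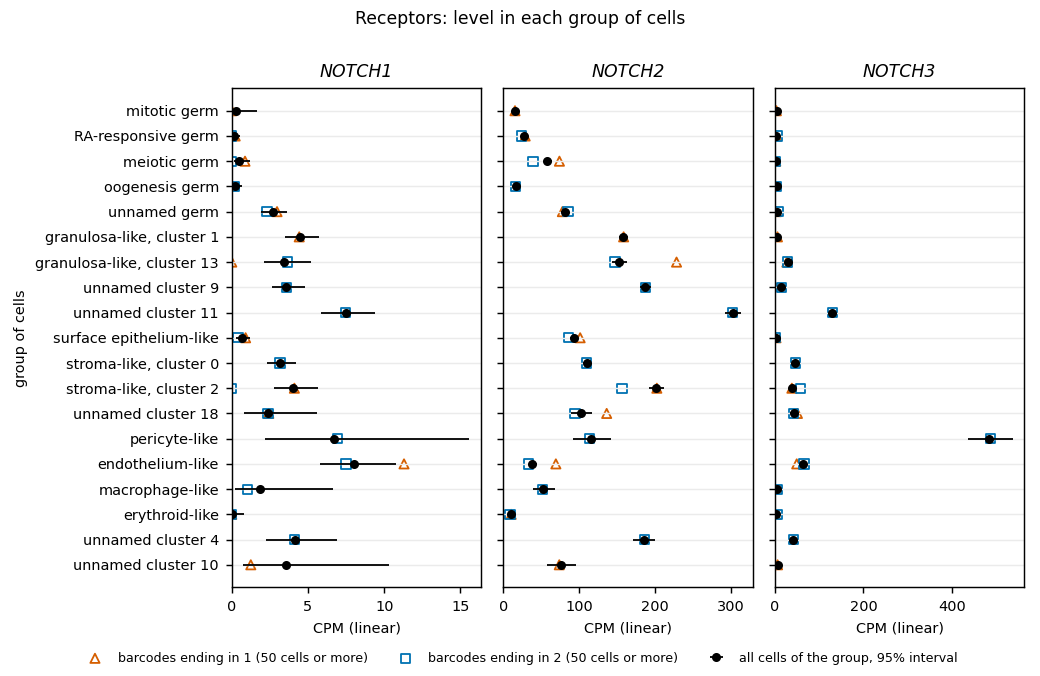
Level of the 3 receptors (CPM, linear axes) in 19 groups of cells; black points are all cells of a group with the 95% Poisson interval, triangles and squares sets 1 and 2 where at least 50 cells are present. NOTCH2 is lowest in erythroid-like, mitotic and oogenesis-like cells and highest at 302 CPM in cluster 11, whereas NOTCH3 peaks at 484 CPM in pericyte-like cells.

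HES1, a transcriptional repressor and common NOTCH target, was high in granulosa-like, stroma-like and endothelium-like cells and low in staged germ cells. The order began with the granulosa-like cluster 1 at 1404 CPM (1384 to 1423), the stroma-like cluster 2 at 1100.2 CPM (1077 to 1123), the unnamed cluster 11 at 959 CPM (940.1 to 979) and endothelium-like cells at 752 CPM (729 to 775), and none of these neighbors overlapped. The granulosa-like cluster 13 had 302 CPM (288 to 316) and the stroma-like cluster 0 had 516 CPM (504 to 527). Mitotic germ cells, 251 of 254 in set 1, had 76.2 CPM (67.2 to 86.0). Pooled over sets, RA-responsive, meiotic and oogenesis-like cells had 31.7, 24.6 and 32.7 CPM, near the 31.1 CPM (25.8 to 37.3) of erythroid cell-like cells. In sets 1 and 2, RA-responsive cells had 42.7 and 10.4 CPM, meiotic cells 35.4 and 11.4, and erythroid cell-like cells 31.5 and 29.9. After thinning, 5.30% of RA-responsive cells (4.18 to 6.62) and 2.45% of erythroid cell-like cells (1.41 to 3.95) had a UMI, without overlap. The intervals of the other stages overlapped that of erythroid cell-like cells.

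Granulosa-like cells exceeded germ cells by 3.17 on the log2 scale (3.13 to 3.21), from 1074 against 120 CPM. The difference was 3.05 (2.999 to 3.09) in set 1 and 2.05 (1.95 to 2.15) in set 2. Granulosa-like cells themselves had 1393 CPM and 290.2 CPM in the 2 sets, in which different clusters, 1 and 13, held most of them. Within cluster 13, the level was 483 CPM in set 1 and 289 CPM in set 2. The unnamed germ cells had 322 CPM (313 to 331), of which most came from a sub-cluster of 490 cells led by EGR1, FOS, SOST and KITLG, at 373 CPM (363 to 384). In that sub-cluster the granulosa markers summed to 480 CPM, against 49.4 CPM in the named stages, and 42.0% of the cells were among the 8% with the highest doublet scores. Without the unstaged germ cells, the difference between granulosa-like and germ cells was 4.96 (4.87 to 5.04), and in cells with at most 3000 genes it was 4.11 (3.998 to 4.22).

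HES1 was also set beside immediate early genes, which respond within minutes to many stimuli, tissue dissociation included. A list of 12 such genes (FOS, EGR1, DUSP1 and others), added after the data were seen, summed to 12458 CPM in cluster 1, 4866 CPM in cluster 13, 454 CPM in the named germ cell stages and 4204 CPM in the unnamed germ cells. Pooled over both clusters, granulosa-like cells had more of the list in set 1 (12223 CPM) than in set 2 (5185 CPM), as for HES1. In cluster 1 alone both were higher in set 1 (list 12483.5 CPM, HES1 1419 CPM) than in set 2 (10669 and 323 CPM, from 35 cells). Within cluster 13 alone the list was lower in set 1 (3042 CPM) than in set 2 (4994 CPM), whereas HES1 was higher in set 1. The list also went against HES1 between sets in stroma-like cells (15593 and 17031 CPM, beside 1119 and 512 CPM of HES1) and in endothelium-like cells (8400.4 and 12803 CPM, beside 1075 and 702.5 CPM). The same held in surface epithelium-like cells (6388 and 7328 CPM, beside 303 and 218 CPM) and in pericyte-like cells, where set 1 had 10 cells (9191 and 11336 CPM, beside 631 and 505 CPM). In macrophage-like cells the list went with HES1 between sets (3473 and 6490 CPM, beside 127 and 228 CPM). So it did in the unnamed germ cells (4590 and 3682 CPM, beside 406 and 208 CPM). The direction was also shared in each named germ cell stage, some with few cells in 1 set, and in erythroid cell-like cells. Stroma-like cells came mostly from different clusters, 2 and 0, in sets 1 and 2. The part of the list in the HES1 levels was not tested.

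HEY1, a HEY-family repressor of vessels, was 123 CPM (99.1 to 151) in pericyte-like cells, 69.0 CPM (62.2 to 76.4) in endothelium-like cells and 68.9 CPM (63.8 to 74.3) in the unnamed cluster 11. The granulosa-like cluster 1 followed at 54.5 CPM (50.8 to 58.5), above cluster 13 with 31.4 CPM (27.2 to 36.2). Endothelium-like cells exceeded all other cells by 1.37 on the log2 scale (1.21 to 1.52). The difference was 0.57 (0.30 to 0.83) without the sub-clusters led by pericyte or stroma genes. In cells with at most 3000 genes it was 0.32 (-0.15 to 0.75), an interval that includes 0.

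HEY2, its paralog known from arteries and the heart, was highest in the unnamed cluster 11 at 210.4 CPM (201 to 220), which held 43.9% of its UMIs. Pericyte-like cells had 114 CPM (90.7 to 140), all from set 2. The granulosa-like clusters stood far apart, at 98.3 CPM (90.7 to 106) in cluster 13 and 6.10 CPM (4.89 to 7.51) in cluster 1. Within cluster 13 the level was 47.1 CPM in set 1, from 19 UMIs, and 102 CPM in set 2. After thinning, 8.42% of cluster 13 cells (6.33 to 10.9) and 0.923% of cluster 1 cells (0.565 to 1.42) had a HEY2 UMI.

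Oogenesis-like cells were the germ cells with the most HEY2, at 35.6 CPM (32.1 to 39.3), against 10.3 CPM (8.22 to 12.7) in meiotic, 3.47 CPM (2.55 to 4.61) in RA-responsive and 5.55 CPM (3.34 to 8.66) in mitotic cells. The thinned share was 4.54% (2.90 to 6.73), against 0.932% (0.466 to 1.66) in meiotic cells. Oogenesis-like cells with more and with at most 3000 genes had 36.1 and 30.9 CPM. In sets 1 and 2 the levels were 96.3 CPM from 21 UMIs and 34.3 CPM from 367 UMIs.

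HEYL, the HEY-family member best known from smooth muscle, followed NOTCH3. Pericyte-like cells had 104 CPM (82.4 to 130.1), the unnamed cluster 11 had 90.9 CPM (85.1 to 97.1), the stroma-like cluster 0 had 42.8 CPM (39.5 to 46.3) and the unnamed cluster 18 (INSL3, RRM2) had 39.6 CPM (31.5 to 49.0). The stroma-like cluster 2 had 24.9 CPM (21.6 to 28.6). Endothelium-like cells had 17.1 CPM (13.8 to 21.0), granulosa-like cluster 1 had 3.32 CPM (2.45 to 4.41) and the named germ cell stages had 0.876 to 3.32 CPM.

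**Figure D4:**
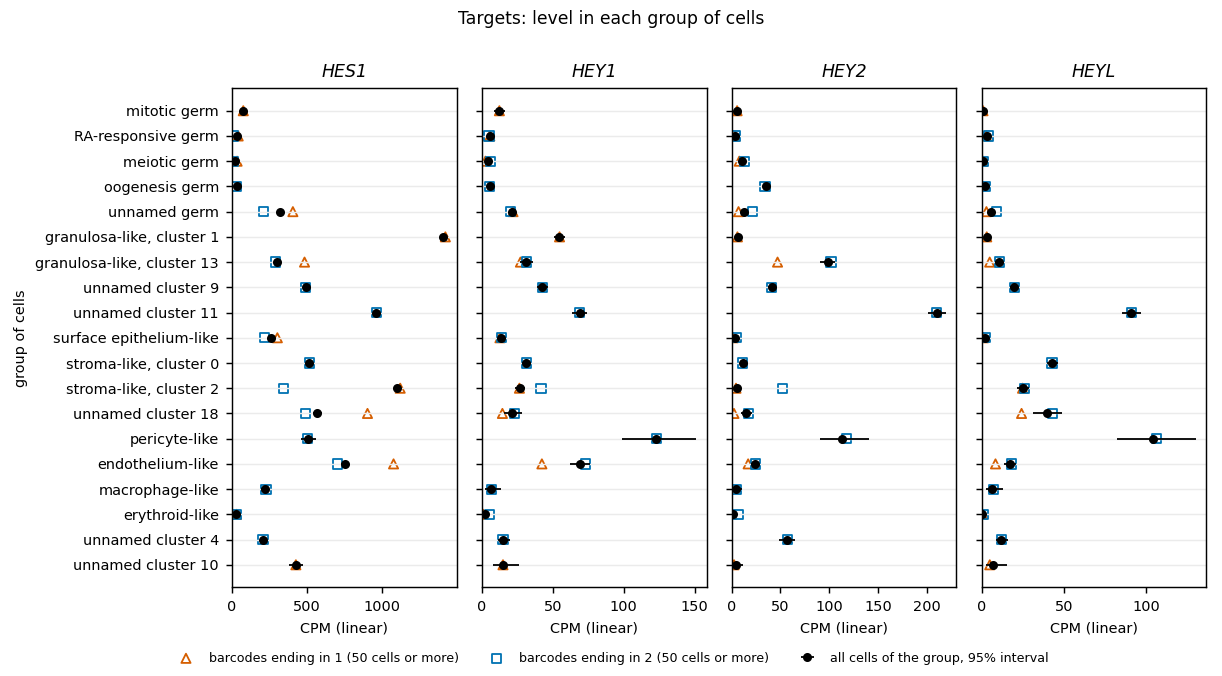
Level of the 4 target genes (CPM, linear axes) in 19 groups of cells; black points are all cells of a group with the 95% Poisson interval, triangles and squares sets 1 and 2 where at least 50 cells are present. HES1 peaks at 1404 CPM in granulosa-like cluster 1, HEY1 at 123 CPM and HEYL at 104 CPM in pericyte-like cells, and HEY2 at 210.4 CPM in cluster 11.

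Within the vessels, the 545 endothelium-like cells fell into 7 sub-clusters, of which only the lymphatic-like one (41 cells, led by MMRN1, CCL21 and PDPN) could be named. DLL4 was highest in sub-cluster 2 at 197 CPM (177 to 219), followed by sub-cluster 1 (147 cells, MGP, FBLN2, SEMA3G) at 145 CPM (122 to 172). It was 106 CPM (85.4 to 130.2) in sub-cluster 3 (62 cells, CXCL10, SELE), 76.1 CPM (54.9 to 103) in the lymphatic-like cells and 37.6 CPM (21.0 to 62.0) in sub-cluster 0 (160 cells, led by HBB and PLVAP). Sub-cluster 0 also carried RNA of other cell types, with 18116 CPM of the erythroid list and the meiotic genes SYCE3, SYCP1 and SMC1B among its leading genes. Sub-cluster 2 (75 cells) was led by the mural genes RGS5, PDGFRB and ACTA2 beside endothelial genes, at a median of 23815 UMIs, and 22.7% of its cells were among the 8% with the highest doublet scores. That share was 26.2% in sub-cluster 0 and 53.1% in sub-cluster 5, against 1.61 to 14.3% in the other 4, and the part of doublets in the levels of these sub-clusters was not tested. Its pericyte markers summed to 1774 CPM and its endothelial markers to 2709 CPM, against 7974 and 237 CPM in pericyte-like cells.

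HEY1 and HEY2 were highest in sub-clusters 1, 2 and 5. HEY1 was 102 CPM (82.5 to 124) in sub-cluster 1, 128 CPM (112 to 146) in sub-cluster 2 and 43.9 CPM (28.1 to 65.3) in sub-cluster 5, which was led by the stroma gene COL1A1. In the other 4 it was 6.27 to 16.3 CPM. Sub-cluster 1 had little of the pericyte list, at 222 CPM. The 6 arterial markers, EFNB2 and SOX17 among them, summed to 1100.2 CPM there. That sum was 1160.5 CPM in sub-cluster 2 and 914 CPM in macrophage-like cells, so it was not particular to sub-cluster 1. Venous markers summed to 976 CPM in sub-cluster 1, and 2 arterial and 2 venous markers passed the naming rule there. NOTCH3 was 7.43 CPM (2.99 to 15.3) in sub-cluster 1 and 156 CPM (138 to 175) in sub-cluster 2. HEY2 was 27.6 CPM (18.02 to 40.4) and 44.4 CPM (35.1 to 55.4) in these 2, 29.3 CPM (16.7 to 47.5) in sub-cluster 5, and 0 of 551571 UMIs in lymphatic-like cells, which allows up to 5.44 CPM.

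JAG2 was 60.1, 75.3 and 62.0 CPM in sub-clusters 0, 1 and 2, against 15.7 to 20.1 CPM in the other 4. JAG1 varied less, from 86.0 CPM (63.2 to 114) in sub-cluster 5 to 178 CPM (152 to 207) in sub-cluster 1. HES1 took another order, with 1122 CPM (1036 to 1214) in lymphatic-like cells and 552 to 1000.3 CPM in the others. Set 1 gave 101 cells of sub-cluster 0 but only 1 to 18 cells of each other sub-cluster, so no comparison within that set was made.

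**Figure D5:**
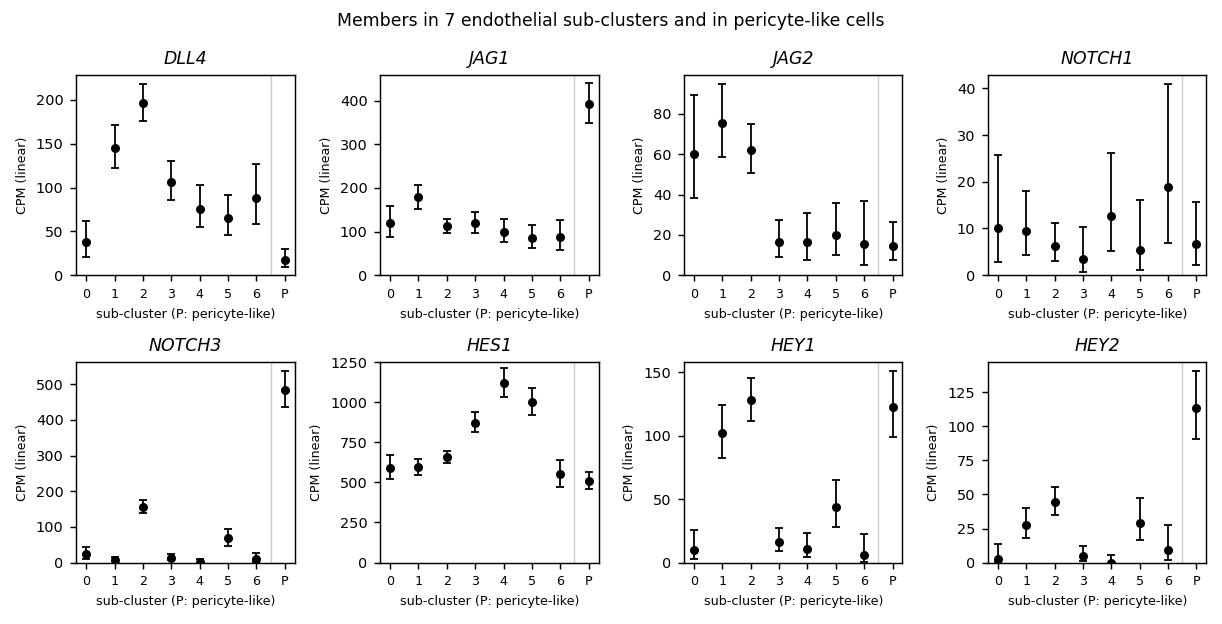
Level of 8 members (CPM, linear axes starting at 0) in 7 endothelial sub-clusters (0 HBB and PLVAP, 1 SEMA3G, 2 RGS5, 3 SELE, 4 lymphatic-like, 5 COL1A1, 6 cycling) and in pericyte-like cells (P), with 95% Poisson intervals. Among endothelial sub-clusters, DLL4 and HEY1 are highest in 1 and 2 and HEY2 in 1, 2 and 5, whereas NOTCH3 reaches 484 CPM in pericyte-like cells and 156 CPM in sub-cluster 2.

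To read the members against all genes, each group was set against all other cells, with 10 CPM added on both sides, over the 14063 genes with at least 100 UMIs. In pericyte-like cells 5 of the 10 members (JAG1, NOTCH3, HEY1, HEY2, HEYL) were at least 2 fold higher, where 4.02% of all genes were. In the unnamed cluster 11 this held for 6 members (NOTCH2, NOTCH3, HES1, HEY1, HEY2, HEYL) and 2.68% of all genes. In endothelium-like cells it held for 4 members (JAG2, DLL4, NOTCH3, HEY1) and 5.86% of all genes. Without the sub-clusters led by pericyte or stroma genes, a choice made after seeing the data, 2 members passed (JAG2 at 2.63 and DLL4 at 10.2 fold), where 6.0% of all genes did, and NOTCH3 and HEY1 were at 0.574 and 1.36 fold.

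Fewer members stood out elsewhere. In oogenesis-like cells JAG1 alone passed 2 fold, where 7.91% of all genes did, and a share of 1 in 10 is close to that background. In granulosa-like cells HES1 alone passed, where 1.59% of all genes did. No member passed in stroma-like cells (3.19% of all genes) or surface epithelium-like cells (2.35%). In fold, the members farthest from the rest were NOTCH3 in pericyte-like cells at 14.5, DLL4 in endothelium-like cells at 12.7, JAG1 in oogenesis-like cells at 8.56 and HEY2 in cluster 11 at 7.56.

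Other genes of the pathway were taken from a list of 55, of which 51 were in the table and 50 had at least 100 UMIs. Of the named groups, endothelium-like and granulosa-like cells each held the highest level of 10, meiotic and oogenesis-like germ cells of 6 each, and pericyte-like and macrophage-like cells of 5 each. Over all 14063 genes these groups held the highest level of 8.19%, 10.1%, 20.2%, 12.97%, 7.41% and 8.84%. Of the 10 members, again among named groups only, pericyte-like cells held the highest level of 4 and endothelium-like cells of 3. Granulosa-like cells, pooled over their clusters, held that of 2 and oogenesis-like cells of 1. With the unnamed clusters included, NOTCH2 and HEY2 were highest in cluster 11, at 302 and 210.4 CPM.

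Only 2 of the 50 were at least 3 times higher in 1 named group than in the next, with 10 CPM added. EGFL7, a secreted endothelial protein that binds NOTCH, was 1790.5 CPM (1755 to 1827) in endothelium-like cells, next to 169 CPM in RA-responsive germ cells. DTX2, a ubiquitin ligase of the Deltex family that acts on NOTCH, was 136 CPM (130 to 144) in oogenesis-like cells, next to 22.4 CPM in surface epithelium-like cells. The latter lay beside JAG1 among the genes high in oogenesis-like cells. RBPJ, the DNA-binding partner of the NOTCH intracellular part, was highest in meiotic germ cells at 348 CPM, next to 288 CPM in RA-responsive cells.

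Of the remaining ligands, DLL1 was 46.5 CPM (40.9 to 52.6) in endothelium-like and 34.7 CPM in pericyte-like cells. DLK1, a membrane protein without the receptor-binding domain of the canonical ligands, was 889 CPM (822 to 959) in pericyte-like and 631 CPM in stroma-like cells but 7.88 CPM in cluster 11. DLK2 was at most 9.80 CPM (7.79 to 12.2), in meiotic germ cells. The fourth receptor, NOTCH4, known from endothelium, was 4.84 CPM (3.16 to 7.09) in endothelium-like and 1.12 CPM in granulosa-like cells.

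Among the other HES genes, HES4 was 40.1 CPM (27.0 to 57.2) in pericyte-like and 39.6 CPM in macrophage-like cells, and 61.7 CPM in cluster 11. HES6, which is not a repressor of the HES1 kind and is known from differentiating cells, was 81.5 CPM (76.8 to 86.5) in RA-responsive and 72.9 CPM in oogenesis-like germ cells, and 2.93 CPM in cluster 11. Among named groups, HES7 was at most 18.7 CPM (10.2 to 31.4) in pericyte-like cells and HES2 at most 4.03 CPM (2.93 to 5.41) in oogenesis-like cells. HES5 had 4 UMIs in the whole table.

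Patterns over the 20 clusters were compared as Pearson correlations of log2(CPM + 10) with each of the 9785 genes that had at least 1000 UMIs. These are descriptions over clusters that share libraries, depth and cells of neighboring types. NOTCH3 was most like SULT1C4 (r = 0.94), HEYL (0.93) and RASL12 (0.92), so that a member of the list was its second nearest gene. DLL4 was most like ESM1 (0.99), a gene of endothelial tip cells, and MYCT1 (0.99). HES1 was most like EGR3 (0.96), CCNL1 (0.96) and EGR1 (0.95), of which both EGR genes belong to the immediate early response. JAG1 was most like DCLK2 (0.87) and NOTCH2 was most like an unnamed gene (ENSMFAG00000033928, 0.90), P4HTM (0.90) and HOMER1 (0.90). Between members, the lowest values were those of NOTCH2 with JAG2 (-0.34) and with DLL4 (-0.20).

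Ligand and receptor RNA were found in the same cells of some groups. Of 141 pericyte-like cells, 70 had a JAG1 and 85 a NOTCH3 UMI, and 53 had both. A JAG1 UMI was found in 62.4% of the cells with NOTCH3 and 30.4% of those without, at medians of 4190.0 and 2931.5 UMIs. In cluster 11, JAG1 was found in 67.0% of cells with and 41.2% of cells without a NOTCH2 UMI, at medians of 9283 and 5186 UMIs. In endothelium-like cells, DLL4 was found in 73.0% of cells with and 31.5% of cells without a HEY1 UMI, at medians of 17259 and 4684 UMIs. In each pair the cells with the second gene were also the deeper ones, and the part of depth in these shares was not tested.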

How the data were processed

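The authors made libraries with the 10x Genomics 3′ kit, counted UMIs with Cell Ranger 3.0.2 against Macaca_fascicularis_5.0 and imported them into Seurat. The deposited table gives whole-number UMI counts that the authors had not normalized. The study's methods state limits of 200 to 3000 genes per cell, but the table still holds 4675 cells above 3000, and all were kept. Correction for ambient RNA is not given in the sources used here.

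Cells were clustered with Seurat 5.3.0 (R 4.3.3, Matrix 1.6.5) on 1990 variable genes, 18 components and 20 neighbors at resolution 0.6, with 10 pathway genes left out of the 2000 variable genes. Germ and endothelium-like cells were clustered again. A name needed 3 markers at 1.5 fold over all other cells in at least 5% of cells. It was withheld where another class had as many, or led more of the 10 leading genes, or where median depth was below that of all cells divided by 3 with no marker leading. A UMI table without the authors' cluster names was used, so rebuilt names can differ from theirs. Scrublet (scanpy 1.11.5) gave 0 doublet calls in either barcode set, so none were removed. A value of 0 was also recorded where it returned no call, so this does not show that doublets are absent. Values came from Python 3.11.15, numpy 2.4.6, scipy 1.17.1, pandas 2.3.3 and matplotlib 3.10.9. The code for intervals and folds was run on simulated Poisson counts, and that for thinning on cells of the table. Such simulated counts hold no spread between cells, so they do not show how far the intervals hold for real cells.

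Named genes were every member in every group, other receptors, ligands and targets of the pathway list, and other listed genes at least 3 fold higher in 1 named group than the next. RBPJ and the marker genes given beside members were named after their values were seen. Members and lists were chosen with earlier results of these data known. Alternatives were cell limits, resolution, doublet scores, barcode sets, single-cell means, pathway genes kept for clustering and a 3 fold limit. Genome positions were not used here.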

Additional observations from a re-analysis of the deposited data

How the results depend on the processing

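Under every alternative tried for the 6 log2 differences, 54 values kept the sign of the value in the report. Of these, 22 lay within its interval and 32 outside it. With at most 3000 genes per cell, JAG1 in oogenesis-like over other germ cells was 4.90, HES1 in granulosa-like over germ cells 4.11, NOTCH3 in pericyte-like over stroma-like cells 3.10 and HEY1 in endothelium-like over other cells 0.32. With at most 10% mitochondrial UMIs, JAG1 was 3.98 and NOTCH2 in granulosa-like over germ cells 1.92. At resolution 1.0, JAG1 was 4.84, NOTCH2 2.16 and HES1 3.55. Without the 8% highest doublet scores they were 5.04, 2.05 and 3.53. In set 1 (barcodes ending in 1), JAG1 was 2.53, NOTCH2 1.63, HES1 3.05, DLL4 in endothelium-like over other cells 5.67 and HEY1 0.83. In set 2, JAG1 was 4.32, NOTCH2 1.95 and HES1 2.05. With pathway genes kept for clustering, JAG1 was 4.99 and HES1 3.21. As means of single-cell CPM, JAG1 was 4.38, NOTCH2 1.61, HES1 3.35, DLL4 6.75 and HEY1 1.01. With the 4 named germ cell stages as reference, a choice made after seeing the data, JAG1 was 5.36, NOTCH2 2.38 and HES1 4.96. Without the endothelial sub-clusters led by pericyte or stroma genes, also added later, DLL4 was 6.73 and HEY1 0.57. The cause of these shifts was not tested. At 3 fold in place of 2 fold, 6 in place of 9 members passed in at least 1 of the 7 groups. Without the endothelial sub-clusters led by pericyte or stroma genes, 2 in place of 4 members passed 2 fold in endothelium-like cells. The cell groups of each difference share the 2 barcode sets, and each difference was also taken within set 1 and within set 2. No paired test was made, because there are only 2 libraries, 1 per stage, with no replicate. The intervals cover counting error only, and the spread between animals is not known.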
